A study of Homo sapiens with 10 samples.

Results

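GAD1 and the subunits of the ligand-gated ion channels were followed through 6 h and 18 h of WNT pathway activation in ESI017, a line of human pluripotent stem cells. The genes were matched by symbol, and the set was chosen with earlier results of these data known. It holds the subunits of GABA-A, glycine, nicotinic acetylcholine, 5-HT3, P2X and ionotropic glutamate receptors, and the glutamate decarboxylases GAD1 and GAD2. The choice gave 72 genes of the 35940 symbols in the deposited table, and 47 of them had enough counts to be tested, among 15251 tested in all.

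Ligand-gated receptors are membrane channels that open when a transmitter binds. Each is built from several subunits, and the mix of subunits sets which ions pass, how fast the channel closes and which drugs act on it. GABA, acetylcholine, glutamate, glycine, serotonin and ATP each have such channels, best known at synapses and at the neuromuscular junction. GABA itself is made from glutamate by the glutamate decarboxylases. Pluripotent stem cells form no synapses.

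The 5 groups had 2 libraries each. CHIR99021 (8 µM, for 18 h or for 6 h) is a small molecule that blocks GSK3, a kinase whose action leads to the breakdown of β-catenin. WNT3A (300 ng/ml, for 18 h or for 6 h) is a ligand of the same pathway, and β-catenin acts in the nucleus with TCF/LEF factors. The remaining group was untreated cells in mTeSR1, the defined medium that all groups shared. All cells were wild type, of 1 line, and were plated 24 h before treatment. No time is given for mTeSR1 and no solvent control is named for CHIR99021, so time in culture and solvent cannot be told apart from the treatment. The series' design text describes 2 biological repeats. Both CHIR99021 18 h libraries come from repeat 2, and nothing says that they were separate cultures, so p-values measure the spread between libraries, which may be technical.

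Library totals lay between 1.66e+07 and 2.67e+07 estimated counts. Levels are in CPM, the counts of a gene divided by the total of its library and multiplied by 1e+06, and 3 counts correspond to 0.112 to 0.180 CPM. Mitochondrial RNA made up 2.70% to 6.73% of a library. The second libraries of WNT3A 6 h and of mTeSR1 stood apart. Their deviations from the mean of all libraries rose with transcript length, with Spearman coefficients of 0.460 and 0.362 across 15142 genes, against -0.293 to -0.0016 in the other libraries. Counts of changed members are therefore also given without these libraries. The 8 pluripotency markers summed to between 6969 and 8184 CPM after 18 h of CHIR99021 and 8039 and 8072 CPM after 18 h of WNT3A, against 8722 and 9445 CPM in mTeSR1, and none of them passed the test at 18 h. Markers of the primitive streak, which WNT signalling induces in the embryo, summed to 150 and 365 CPM after 18 h of CHIR99021 and 311 and 459 CPM after 18 h of WNT3A, against 3.18 and 9.76 CPM in mTeSR1. Sums of marker lists, here and below, are given as the lower and the higher value of a group, not in the order of its libraries.

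Levels spread widely over the members in untreated cells. GRIK5, a kainate receptor subunit, stood at 76.0 ± 4.46 CPM in mTeSR1 (SD, n = 2). Per kilobase of the longest transcript the mTeSR1 level was 21.7 CPM for GRIK5, 7.94 CPM for GABRA5 and 5.78 CPM for CHRNA5. In total 38 of the 72 members reached a mean of 1 CPM in some group and 14 reached 10 CPM. The other 34 included 6 with 0 counts in all 10 libraries, namely GRIA2, GABRR3, CHRNB3, HTR3B, HTR3D and HTR3E. GRIA2, the AMPA subunit whose edited form keeps calcium out of the channel, was thus not detectable, although GRIA1, GRIA3 and GRIA4 were. Of the 25 members not tested, the highest group mean was 0.615 CPM.

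**Figure D1:**
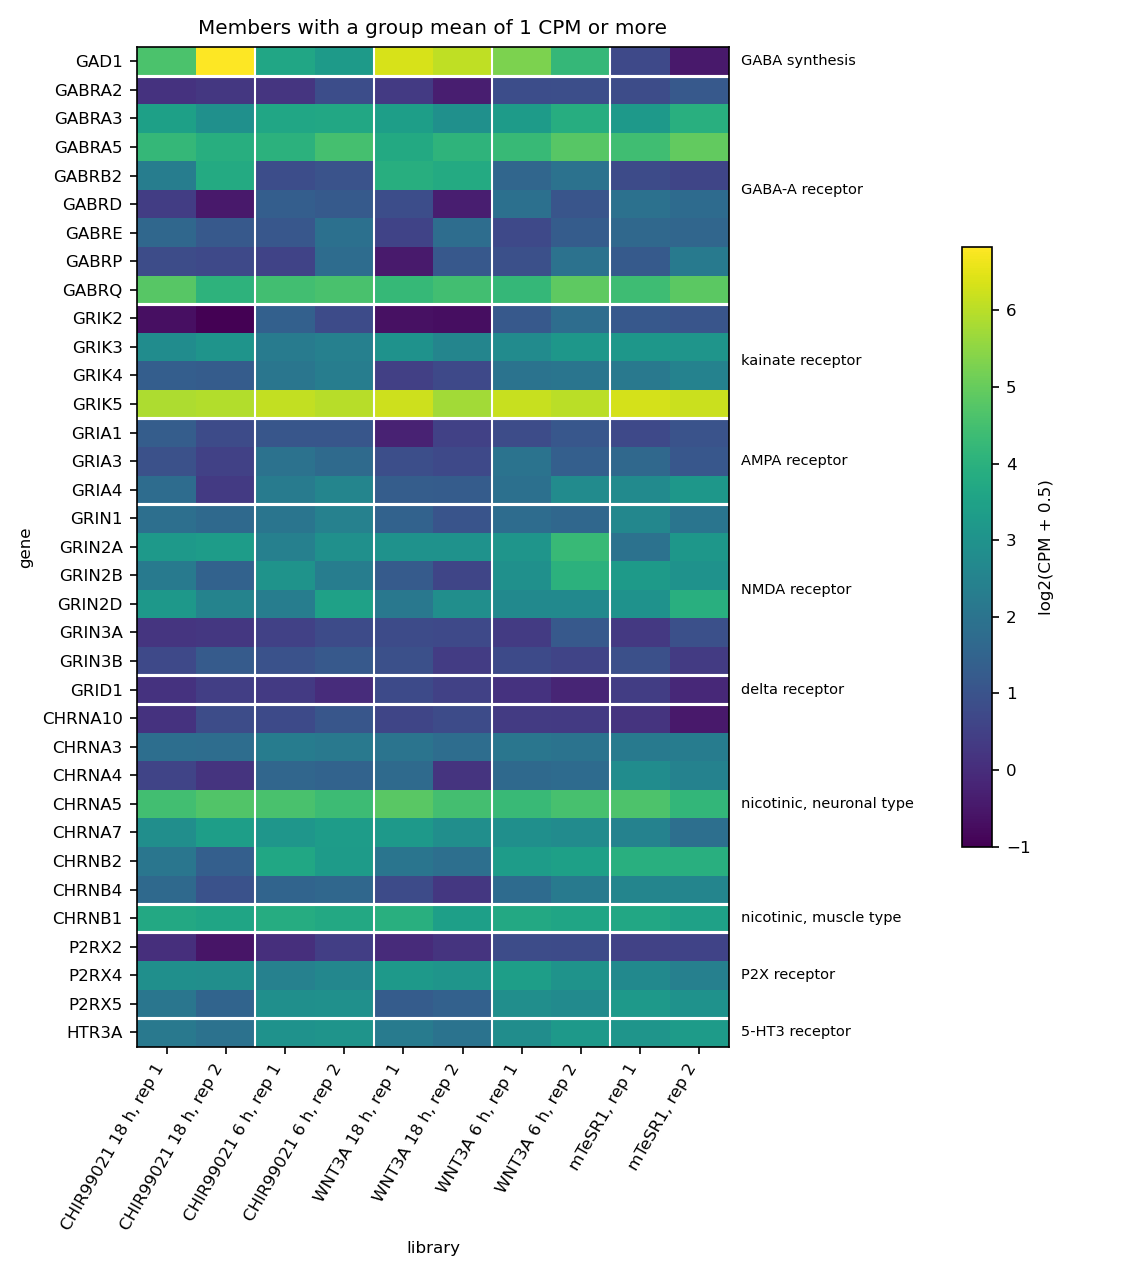
Level of 35 members with a group mean of 1 CPM or more, as log2(CPM + 0.5) by colour, with a line per gene, grouped by receptor, and a column per library. GRIK5 is bright in all libraries, while GAD1 is dark in the mTeSR1 libraries, at 1.17 and 0.22 CPM, and bright in the treated ones.

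After 18 h of either agent more members had fallen than risen. With WNT3A, 8 of the 47 tested members (17%) passed the threshold, an FDR under 0.05 over all genes tested in edgeR's quasi-likelihood test, against 2.10% of all genes. GAD1 and GABRB2 rose, where 1.04% of all genes rose, and CHRNB2, CHRNB4, GRIK2, GRIK4, GRIN2B and P2RX5 fell, where 1.06% of all genes fell. With CHIR99021, 10 members (21.3%) passed, against 2.78% of all genes. GAD1 and GABRB2 again rose, where 1.15% of all genes rose, and CHRNA4, CHRNB2, GABRA5, GABRP, GRIK2, GRIK4, HTR3A and P2RX5 fell, where 1.63% of all genes fell. The median log2 change of the tested members was -0.69 with CHIR99021 and -0.51 with WNT3A, while the median of all genes was 0.02 in both. The second mTeSR1 library was among those whose deviations rose with transcript length. All genes were not matched to the members by length, so the part of transcript length in these medians was not tested. Both comparisons share the mTeSR1 libraries. The set was chosen with earlier results of these data known, so its shares describe it and are no independent test. In these bulk libraries, fewer cells that make an RNA and less RNA per cell cannot be told apart.

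Most of these calls depend on every library being present. With WNT3A at 18 h the count of 8 fell to 0 without the first WNT3A 18 h library or without the second mTeSR1 library. It fell to 1 without the second WNT3A 18 h library (GAD1), without the first mTeSR1 library (GRIK4), and without both libraries that stood apart (P2RX5). With CHIR99021 at 18 h the count of 10 became 7 without the first CHIR99021 library, 2 without the second (CHRNB2 and GAD1), 1 without the first mTeSR1 library (CHRNB2) and 0 without the second, as it did without both libraries that stood apart. Each such fit leaves a group with 1 library, which is assumed to vary like the others. The counts over all genes moved in these fits as well, as given at the end. A lower count of members here thus does not tell a loss of power from a loss of the members' excess over all genes. No log2 change of a called member changed sign in any of these fits. The CHIR99021 18 h values come from a fit with the biological repeat as a block, so a log2 change need not equal the ratio of the means. Without the block 5 members passed with CHIR99021, and fewer of all genes passed too. The WNT3A 18 h values come from a fit without the block, so the shares of members for WNT3A and CHIR99021 come from unlike models. With the block more of all genes passed with WNT3A at 18 h as well, as given at the end.

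GAD1, the decarboxylase that makes most of the GABA of the brain, changed more than any other member. It had 23.7 and 113 CPM after 18 h of CHIR99021, 11.8 and 9.04 CPM after 6 h of CHIR99021, 81.8 and 67.5 CPM after 18 h of WNT3A and 38.3 and 17.9 CPM after 6 h of WNT3A, against 1.17 and 0.22 CPM in mTeSR1. Every treated library was thus above both mTeSR1 libraries, which held 22 and 4 counts, and the second CHIR99021 18 h library was the highest of all. The log2 change against mTeSR1 was 6.97 ± 0.889 after 18 h of CHIR99021 (SE, FDR 0.00844) and 6.71 ± 0.919 after 18 h of WNT3A (FDR 0.0107). These correspond to about 126-fold and 104-fold, measured from a level near the limit of detection. Over the alternative fits the log2 change ranged from 5.48 to 8.16 with CHIR99021 and from 5.99 to 8.29 with WNT3A. Per kilobase GAD1 then stood at 17.2 CPM with CHIR99021 and 18.7 CPM with WNT3A.

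At 6 h, GAD1 was 3.86 ± 0.892 higher on the log2 scale with CHIR99021 (FDR 0.534) and 5.35 ± 0.894 higher with WNT3A (FDR 0.0525), and neither passed the threshold in edgeR. With the biological repeat as a block the WNT3A value passed, at FDR 0.0256 and an unchanged log2 change of 5.35. DESeq2 called GAD1 in both comparisons at 6 h, with adjusted p of 0.0172 for CHIR99021 and 4.84e-06 for WNT3A. GAD2, the form of the enzyme found at nerve endings, stayed at or under 0.716 CPM in all libraries and had too few counts to be tested. Its counts were 10 in mTeSR1, 18 and 5 after 6 h and 18 h of CHIR99021, and 12 and 3 after 6 h and 18 h of WNT3A. No rise of the size of that of GAD1 was seen, and a fall or a small rise of GAD2 was not detectable at this depth.

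SP5, a zinc finger gene known as a direct target of β-catenin, starts 97.9 kb from GAD1 on chromosome 2 (GRCh38, GAD1 at chr2:170813213-170861151, plus strand). It had 136 and 379 CPM after 18 h of CHIR99021 and 360 and 289 CPM after 18 h of WNT3A, against 0.371 and 0 CPM in mTeSR1. In the CHIR99021 18 h pair the second library was the higher for both GAD1 and SP5. This gap was not particular to the region, since GABRB2 on chromosome 5 had 4.52 and 13.3 CPM in the same libraries. Of the streak markers, EOMES varied widely in this pair (44.0 ± 46.3 CPM), while NODAL did not (134 ± 13.3 CPM). ERICH2, which lies between them, starts 29.4 kb from GAD1 and averaged 2.41 ± 0.268 CPM after 18 h of CHIR99021 and 1.63 ± 0.480 CPM after 18 h of WNT3A, against 0.378 ± 0.0105 CPM in mTeSR1 (SD, n = 2 each). ERICH2 passed with CHIR99021 (log2 change 2.33, FDR 0.0358) and not with WNT3A (2.06, FDR 0.0905). GORASP2, 115 kb away on the other side, averaged 122.6 and 120.5 CPM with CHIR99021 and WNT3A at 18 h, against 99.8 CPM in mTeSR1 (FDR 0.459 and 0.574).

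**Figure D2:**
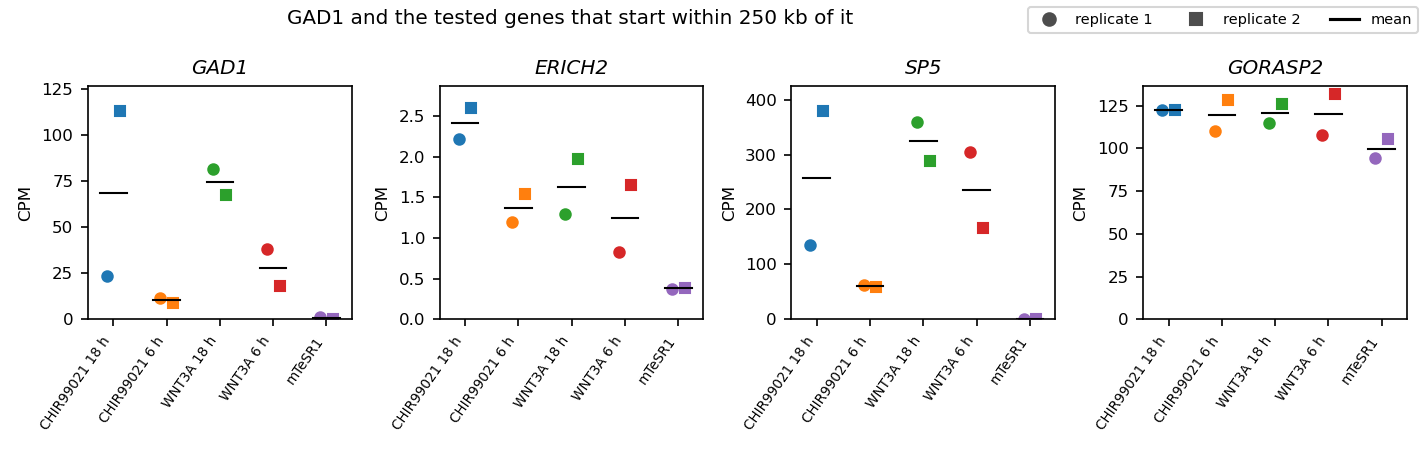
CPM in each library for GAD1 and the 3 tested genes that start within 250 kb of it, on a linear axis from 0. Circles are replicate 1, squares replicate 2 and bars the mean of 2. GAD1 and SP5 are near 0 in mTeSR1 and share a wide gap between the CHIR99021 18 h libraries, at 23.7 and 113 CPM for GAD1 and 136 and 379 CPM for SP5. GABRB2 on chromosome 5, not shown here, has such a gap too, at 4.52 and 13.3 CPM.

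Promoter windows of 250 bases before the annotated start were taken from RefSeq (GRCh38.p14) and searched on both strands for CTTTGA and CTTTGT, the core letters that TCF/LEF factors bind. The motifs do not overlap each other. Either was present in 22.8% of 35116 windows of all genes and in 11 of 66 windows (16.7%) of the 48 members that have one. The SP5 window held 4 matches, shown in capitals in the sequence below. The GAD1 window held 0, but it lies at chr2:170816637-170816886, inside the gene as GENCODE 29 annotates it and over annotated exons, so the bases before the start of GAD1 given above were not searched. The GABRB2 window held 1 CTTTGA, in the stretch next to the start that other transcripts annotate as exon, so that only the rest of it is printed. CHRNB2, a member that fell with both agents, had 0. Of 10 windows of members that fell, 1 held a match, that of GABRP. Some of these members have several windows, and CHRNA4, GABRA5, HTR3A and P2RX5, which also fell, have none. The windows of GABRB2, GABRP, GRIK2 and CHRNB4, and some windows of GRIN2B and GRIK4, also lie inside the genes as GENCODE 29 annotates them. For GABRB2, GABRP, GRIK2 and CHRNB4 the bases before the annotated gene start were not searched. The windows are shown on the strand of each gene so that the neighbour that rose beside GAD1 can be set against a member that rose and a member that fell.
SP5, chr2:170715087-170715336, plus strand: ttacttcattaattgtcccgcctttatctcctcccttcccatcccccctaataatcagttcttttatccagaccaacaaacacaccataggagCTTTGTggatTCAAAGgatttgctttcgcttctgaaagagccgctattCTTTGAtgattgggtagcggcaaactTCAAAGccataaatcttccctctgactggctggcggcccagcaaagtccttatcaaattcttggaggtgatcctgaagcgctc
GABRB2, chr5:161546796-161546975, minus strand: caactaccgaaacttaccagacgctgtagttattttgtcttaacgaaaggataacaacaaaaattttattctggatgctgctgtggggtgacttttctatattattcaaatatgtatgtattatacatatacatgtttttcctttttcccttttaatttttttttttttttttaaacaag
CHRNB2, chr1:154567528-154567777, plus strand: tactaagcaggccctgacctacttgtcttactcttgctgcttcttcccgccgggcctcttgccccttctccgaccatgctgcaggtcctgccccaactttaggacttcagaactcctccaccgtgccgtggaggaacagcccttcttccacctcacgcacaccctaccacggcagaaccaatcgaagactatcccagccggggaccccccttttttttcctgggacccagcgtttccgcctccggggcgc

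GABRB2, the β subunit of the most common GABA-A receptors of the adult brain, was the other member that rose. It had 4.52 and 13.3 CPM after 18 h of CHIR99021, 1.31 and 1.49 CPM after 6 h of CHIR99021, 14.4 and 13.2 CPM after 18 h of WNT3A and 2.5 and 3.4 CPM after 6 h of WNT3A, against 1.22 and 1.05 CPM in mTeSR1. All 18 h libraries were above all others, and the second CHIR99021 18 h library was again the higher of its pair. The log2 change at 18 h was 2.88 ± 0.526 with CHIR99021 (FDR 0.0306) and 3.57 ± 0.491 with WNT3A (FDR 0.0107). At 6 h it was 0.27 with CHIR99021 (FDR 0.962) and 1.42 with WNT3A (FDR 0.507). None of its neighbours within 250 kb was tested.

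Other GABA-A subunits went down or did not pass. GABRA5, an α subunit known from extrasynaptic receptors of the hippocampus, had 18.1 and 14.4 CPM after 18 h of CHIR99021 against 21.1 and 30.5 CPM in mTeSR1. The groups did not overlap, and it fell by 0.93 ± 0.170 on the log2 scale (FDR 0.0306), but without the repeat as a block the change was -0.71 (FDR 0.322). After 18 h of WNT3A it had 12.9 and 16.4 CPM, a log2 change of -0.85 (FDR 0.226). GABRP, the π subunit known from tissues outside the brain, had 1.26 and 1.16 CPM after 18 h of CHIR99021 against 1.8 and 4.13 CPM in mTeSR1. It fell by 2.00 ± 0.432 (FDR 0.04996), just inside the threshold, and without the block its value was -1.33 (FDR 0.532).

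GABRQ (16.3 to 28.96 CPM over all libraries) and GABRA3 (7.11 to 14.99 CPM), a θ and an α subunit, overlapped between the groups. GABRD, GABRE and GABRA2 lay between 0.231 and 3.29 CPM and none passed. GABRD, the δ subunit of extrasynaptic receptors, had 0.841 and 0.231 CPM after 18 h of CHIR99021 and 1.29 and 0.289 CPM after 18 h of WNT3A, all under the 3.29 and 2.81 CPM of mTeSR1 (FDR 0.123 and 0.246).

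The rest of the GABA pathway did not pass beside GAD1. Of 26 genes of GABA breakdown, transport, anchoring and metabotropic GABA receptors, 19 were tested, and 0 passed in each of the 4 comparisons with mTeSR1. Their median log2 change was -0.21 after 18 h of CHIR99021 and -0.24 after 18 h of WNT3A. ABAT, the transaminase that breaks GABA down, averaged 6.998 ± 3.27 CPM after 18 h of CHIR99021 and 8.04 ± 1.39 CPM after 18 h of WNT3A, against 17.5 ± 1.12 CPM in mTeSR1. SLC32A1, the carrier that fills synaptic vesicles with GABA, averaged 0.0890 and 0.101 CPM in the same treated groups and 0.192 CPM in mTeSR1, near the level of 3 counts.

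**Figure D3:**
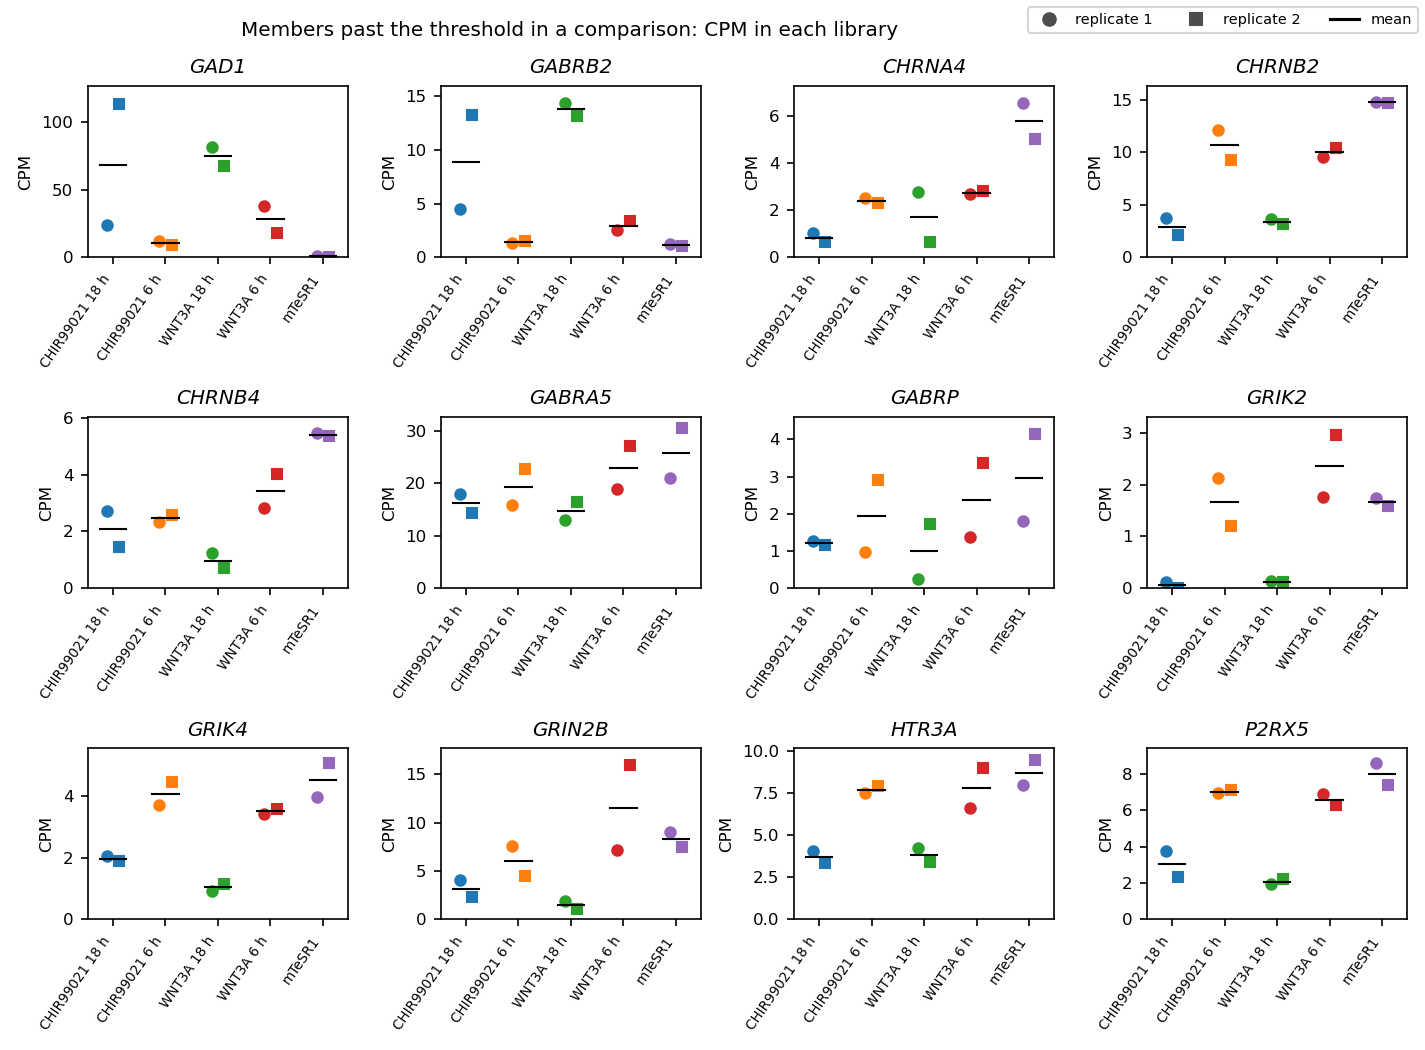
CPM in each library for the 12 members that passed the threshold in some comparison, on linear axes from 0, with circles for replicate 1, squares for replicate 2 and bars for the mean of 2. GAD1 and GABRB2 are high at 18 h, while in CHRNB2 the 18 h libraries of both agents lie between 2.08 and 3.73 CPM, far under the 14.8 and 14.7 CPM of mTeSR1.

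Of 8 tested subunits of neuronal nicotinic receptors, 2 fell with each agent at 18 h, and CHRNB2 alone fell with both. CHRNB2, the β subunit of the main brain receptor for nicotine, had 3.73 and 2.08 CPM after 18 h of CHIR99021, 12.1 and 9.27 CPM after 6 h of CHIR99021, 3.63 and 3.13 CPM after 18 h of WNT3A and 9.53 and 10.4 CPM after 6 h of WNT3A, against 14.8 and 14.7 CPM in mTeSR1. The 4 libraries at 18 h were the lowest and did not overlap with any other. It fell by 2.34 ± 0.302 on the log2 scale with CHIR99021 (FDR 0.00844) and by 2.15 ± 0.295 with WNT3A (FDR 0.0107) at 18 h. At 6 h the log2 changes were -0.50 (FDR 0.954) and -0.52 (FDR 0.968).

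CHRNA4, the α subunit that joins CHRNB2 in that receptor, had 1.02 and 0.636 CPM after 18 h of CHIR99021, 2.51 and 2.31 CPM after 6 h of CHIR99021, 2.77 and 0.637 CPM after 18 h of WNT3A and 2.68 and 2.81 CPM after 6 h of WNT3A, against 6.57 and 5.02 CPM in mTeSR1. All treated libraries were below mTeSR1. It passed only with CHIR99021 at 18 h, where it fell by 2.57 ± 0.547 (FDR 0.0477), while the value without the block was -2.83 (FDR 0.0677) and that for WNT3A at 18 h was -1.77 (FDR 0.173). Of 10 tested genes that start within 250 kb of CHRNA4, EEF1A2, a translation elongation factor gene, fell as well after 18 h of CHIR99021 (log2 change -1.19, FDR 0.0166).

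CHRNB4, the β subunit of autonomic ganglia, had 2.70 and 1.45 CPM after 18 h of CHIR99021, 2.35 and 2.59 CPM after 6 h of CHIR99021, 1.24 and 0.695 CPM after 18 h of WNT3A and 2.82 and 4.04 CPM after 6 h of WNT3A, against 5.46 and 5.35 CPM in mTeSR1. Every treated library was below both of mTeSR1. It fell by 2.49 ± 0.425 with WNT3A at 18 h (FDR 0.0242), and with CHIR99021 at 18 h the change was -1.44 (FDR 0.114). CHRNB4 lies in a cluster with CHRNA3 and CHRNA5 on chromosome 15, and these did not pass. CHRNA5, an accessory subunit, was the most abundant nicotinic gene per kilobase and ranged from 17.6 to 27.6 CPM over all libraries, and CHRNA3 from 2.95 to 4.42 CPM. Exons of CHRNA3 and CHRNA5 overlap on opposite strands over 198 bases, so their reads may be divided.

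CHRNA7, which forms nicotinic channels that are highly permeable to calcium, had 6.76 and 10.01 CPM after 18 h of CHIR99021 and 8.88 and 6.88 CPM after 18 h of WNT3A, against 4.99 and 3.15 CPM in mTeSR1. The groups did not overlap, yet the log2 changes of 1.13 (FDR 0.0832) and 0.94 (FDR 0.165) did not pass, and part of this gene is duplicated in CHRFAM7A, so that reads may be divided between them. CHRNA10 ranged from 0.220 to 1.65 CPM. The subunits of the muscle receptor gave no call. CHRNB1 stood at 12.2 ± 0.716 CPM after 18 h of CHIR99021 and 12.6 ± 3.31 CPM after 18 h of WNT3A, against 11.6 ± 1.24 CPM in mTeSR1, while CHRNA1 had 5 counts over all libraries. The 9 skeletal muscle markers summed to 4.26 and 6.65 CPM after 18 h of CHIR99021 and 5.73 and 6.21 CPM after 18 h of WNT3A, against 4.13 and 4.74 CPM in mTeSR1. Of these markers 3 were tested and 0 passed. At 0 counts were 2 of the 9 after 18 h of CHIR99021, 5 after 18 h of WNT3A and 3 in mTeSR1. MYOD1 and MYOG, which define skeletal muscle cells, were at 0 in each of these groups. All other markers of the list had counts after 18 h of CHIR99021. Of 20 other genes of acetylcholine synthesis, breakdown and receptor clustering, 12 were tested, and LRP4, part of the receptor for agrin, alone passed against mTeSR1, at 79.7 ± 13.7 CPM after 18 h of WNT3A against 35.5 ± 1.68 CPM in mTeSR1 (log2 change 1.14, FDR 0.0223).

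Among kainate receptors, which are glutamate channels that also tune transmitter release, the calls fell on 2 of 5 genes. GRIK2, a subunit that can form channels alone, had 0.120 and 0 CPM after 18 h of CHIR99021, 2.13 and 1.21 CPM after 6 h of CHIR99021, 0.143 and 0.116 CPM after 18 h of WNT3A and 1.76 and 2.96 CPM after 6 h of WNT3A, against 1.75 and 1.60 CPM in mTeSR1. At 18 h it was near the limit of detection, with 2 counts in all for CHIR99021 and 5 for WNT3A against 62 in mTeSR1. The ratio of mTeSR1 to the CHIR99021 18 h libraries was 28.4, with a 95% counting interval of 7.55 to 240, and the fitted FDR was 0.0329. With WNT3A at 18 h the log2 change was -3.64 ± 0.725 (FDR 0.0430).

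GRIK4, a subunit that needs a partner such as GRIK2 to form a channel, had 2.04 and 1.91 CPM after 18 h of CHIR99021, 3.71 and 4.46 CPM after 6 h of CHIR99021, 0.907 and 1.16 CPM after 18 h of WNT3A and 3.42 and 3.59 CPM after 6 h of WNT3A, against 3.97 and 5.07 CPM in mTeSR1. The 18 h libraries were below all others. It fell by 1.36 ± 0.270 with CHIR99021 (FDR 0.0395, and 0.0999 without the block) and by 2.16 ± 0.308 with WNT3A (FDR 0.0128) at 18 h. GRIK5, the other subunit that needs a partner, did not follow it. Its level was 58.9 ± 2.07 CPM after 18 h of CHIR99021 and 64.1 ± 15.8 CPM after 18 h of WNT3A, against 76.0 ± 4.46 CPM in mTeSR1, with log2 changes of -0.30 (FDR 0.279) and -0.27 (FDR 0.565). GRIK3 ranged from 4.31 to 8.32 CPM and did not pass.

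NMDA receptors pair GRIN1, which every such channel needs, with GRIN2 subunits that bind glutamate. GRIN2B, the form that prevails before birth, had 4.08 and 2.25 CPM after 18 h of CHIR99021, 7.58 and 4.46 CPM after 6 h of CHIR99021, 1.86 and 1.04 CPM after 18 h of WNT3A and 7.17 and 15.9 CPM after 6 h of WNT3A, against 9.06 and 7.44 CPM in mTeSR1. The highest value was that of the second WNT3A 6 h library, and the 18 h libraries were the lowest. It fell by 2.51 ± 0.520 with WNT3A at 18 h (FDR 0.0493), and with CHIR99021 at 18 h the change was -1.37 (FDR 0.202). GRIN2A, the form that prevails later in life, averaged 9.19 ± 0.583 CPM after 18 h of CHIR99021 and 7.51 ± 0.0210 CPM after 18 h of WNT3A, against 5.80 ± 3.49 CPM in mTeSR1, and did not pass (FDR 0.597 and 0.822). GRIN1 had 2.24 and 1.56 CPM after 18 h of WNT3A, against 5.67 and 3.64 CPM in mTeSR1 (log2 change -1.30, FDR 0.102). GRIN2D ranged from 3.87 to 14.7 CPM, and GRIN3A and GRIN3B from 0.661 to 1.85 CPM.

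AMPA and delta subunits gave no call. GRIA4, an AMPA subunit prominent before birth in rodents, had 2.88 and 0.752 CPM after 18 h of CHIR99021 and 1.96 and 1.91 CPM after 18 h of WNT3A, against 6.15 and 8.27 CPM in mTeSR1. The 18 h libraries did not overlap with those of mTeSR1, at log2 changes of -2.24 (FDR 0.0669) and -1.92 (FDR 0.146). GRIA3 ranged from 0.925 to 3.42 CPM and GRIA1 from 0.334 to 1.98 CPM. GRID1 lay between 0.374 and 1.19 CPM.

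Of 34 genes whose proteins bind, traffic or anchor ionotropic glutamate receptors, 30 were tested. CNIH3, an AMPA receptor auxiliary protein, rose in 3 of the 4 comparisons with mTeSR1, to 24.9 ± 9.85 CPM after 18 h of CHIR99021, 31.3 ± 1.14 CPM after 18 h of WNT3A and 37.5 ± 4.48 CPM after 6 h of WNT3A, against 5.29 ± 0.617 CPM in mTeSR1 (log2 changes 2.24, 2.54 and 2.86; FDR 0.00681, 0.00477 and 0.00318). NPTX1, a secreted protein that gathers AMPA receptors, fell at 18 h to 1.39 ± 0.0790 CPM with CHIR99021 and 1.21 ± 0.0171 CPM with WNT3A, against 7.12 ± 2.64 CPM in mTeSR1 (FDR 0.00844 and 0.0220). CBLN1, a secreted protein that helps to form synapses, rose to 15.7 ± 9.10 CPM after 18 h of CHIR99021, against 3.70 ± 1.96 CPM in mTeSR1 (FDR 0.0179), and CACNG8, an AMPA receptor auxiliary protein, fell to 10.3 ± 0.943 CPM, against 26.3 ± 10.1 CPM (FDR 0.0426). Of 26 genes of glutamate synthesis, transport and metabotropic receptors, 22 were tested and 0 passed against mTeSR1.

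P2RX5, a subunit of the P2X channels that ATP opens, had 3.75 and 2.35 CPM after 18 h of CHIR99021, 6.93 and 7.11 CPM after 6 h of CHIR99021, 1.93 and 2.20 CPM after 18 h of WNT3A and 6.88 and 6.27 CPM after 6 h of WNT3A, against 8.63 and 7.42 CPM in mTeSR1. The 18 h libraries were below all others. It fell by 1.42 ± 0.278 with CHIR99021 (FDR 0.0376) and by 1.99 ± 0.277 with WNT3A (FDR 0.0112) at 18 h. The readthrough gene P2RX5-TAX1BP3 shares 41.6% of the exon bases of P2RX5, so reads of the pair may be divided, and it stood at 4.96 and 4.47 CPM after 18 h of CHIR99021 and WNT3A, against 3.74 CPM in mTeSR1. P2RX4 ranged from 4.85 to 9.99 CPM and P2RX2 from 0.173 to 1.25 CPM, and neither passed.

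HTR3A, the subunit that every 5-HT3 serotonin channel contains, had 4.03 and 3.36 CPM after 18 h of CHIR99021, 7.47 and 7.87 CPM after 6 h of CHIR99021, 4.25 and 3.41 CPM after 18 h of WNT3A and 6.62 and 8.98 CPM after 6 h of WNT3A, against 7.95 and 9.43 CPM in mTeSR1. All 18 h libraries were below all others. It fell by 1.34 ± 0.260 with CHIR99021 at 18 h (FDR 0.0365, and 0.0647 without the block), and with WNT3A at 18 h the change of -1.21 missed the threshold (FDR 0.0571). The glycine receptor subunits stayed near the limit of detection, and GLRA4 alone of the 5 was tested. Of 24 genes of glycine, serotonin and purine handling, 16 were tested, and 0 passed against mTeSR1.

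**Figure D4:**
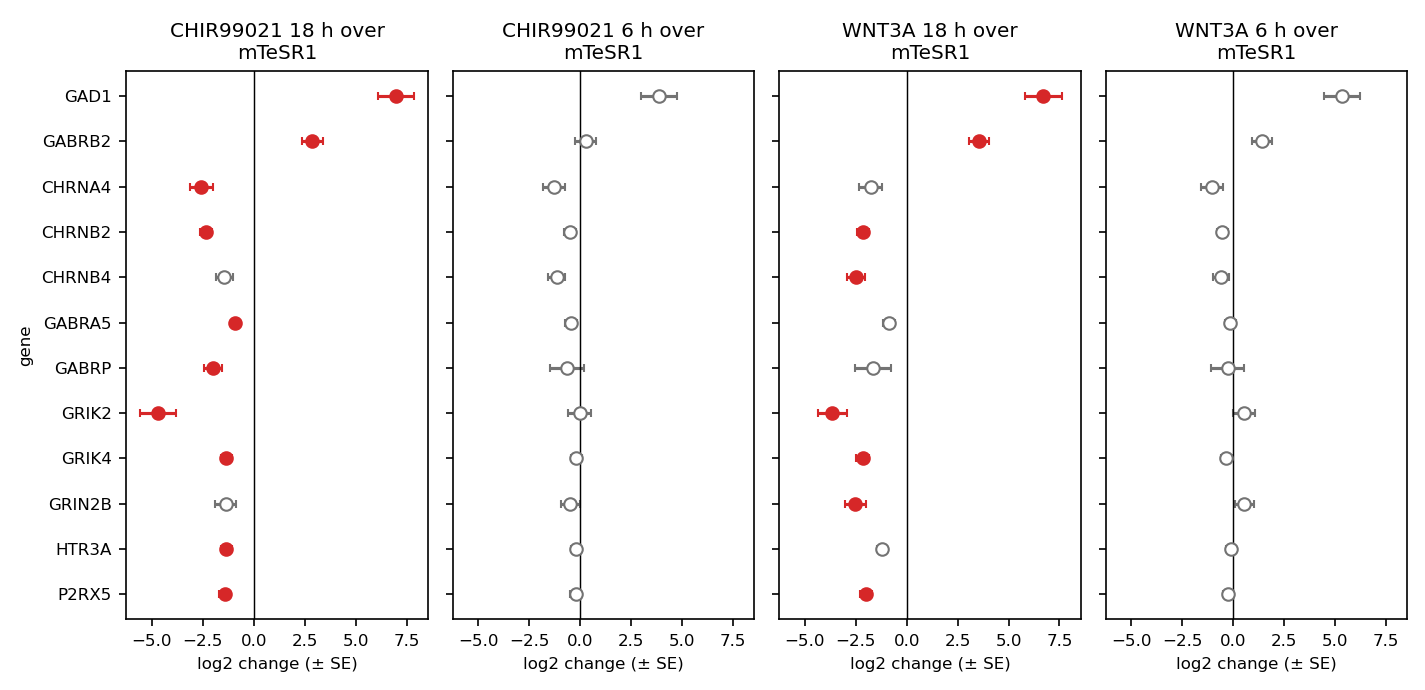
Log2 change over mTeSR1 of the 12 members that passed in some comparison, with bars of 1 SE, in 4 panels. Filled red points passed the threshold and open grey points did not. At 6 h all points are open, with GAD1 at 3.86 for CHIR99021 and 5.35 for WNT3A, while at 18 h GAD1 and GABRB2 lie to the right of 0 and the other members to the left.

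At 6 h, 0 of the 47 members passed for either agent in the main edgeR fit, which had no block. With the repeat as a block GAD1 passed with WNT3A, as given above, and more of all genes passed too. With CHIR99021 7 members had an unadjusted p under 0.05, where 0.0197% of all genes passed the FDR threshold and 4.74% had such a p. With WNT3A 6 members did, where 0.433% of all genes passed and 6.16% had such a p. DESeq2 called 1 member for each agent, GAD1, and it also called more of all genes than edgeR did, as counted at the end. The largest log2 changes after GAD1 were -2.23 for GLRA4, -1.94 for GRIK1, 1.69 for CHRNA10 and -1.29 for CHRNA4 with CHIR99021, and 1.73 for CHRNG, 1.42 for GABRB2, 1.26 for GRIN2A and 1.16 for P2RX7 with WNT3A. Several of these rest on few reads: GLRA4 had 5 counts after 6 h of CHIR99021, against 24 in mTeSR1. The median log2 change of the members was -0.16 with CHIR99021 and -0.0015 with WNT3A, against 0.0074 and 0.0064 for all genes.

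Between 18 h and 6 h of the same agent 0 members passed in edgeR, where 0.00656% of all genes passed with CHIR99021 and 0.144% with WNT3A. An unadjusted p under 0.05 was given to 14 members with CHIR99021 and to 15 with WNT3A, against 6.85% and 13.2% of all genes. DESeq2 called 3 members with CHIR99021 (CHRNB2, GABRB2 and GRIK2) and 9 with WNT3A. With the biological repeat as a block edgeR called 5 with WNT3A, namely CHRNB2, GRIK2, GRIK4, GRIN2B and P2RX5, all lower at 18 h. Over all genes, too, DESeq2 with both agents and this block fit called many more than the main fit, as counted at the end. In the fit without the block GRIN2B changed by -3.05 between 18 h and 6 h of WNT3A (FDR 0.0709), P2RX5 by -1.74 (FDR 0.0616) and GAD1 by 1.36 (FDR 0.406). GAD1 changed by 3.06 between 18 h and 6 h of CHIR99021 (FDR 0.252), where the first CHIR99021 18 h library was the one low in GAD1 and SP5. In the list of glycine, serotonin and purine genes, P2RY1, a receptor for ADP, was higher after 18 h of WNT3A, at 47.7 ± 8.80 CPM against 15.3 ± 0.640 CPM after 6 h (FDR 0.0493).

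CHIR99021 and WNT3A were not told apart in any member at either time. At 18 h 0 members passed in edgeR, as did 0% of all genes, and DESeq2 called 0 members too. Only GABRR1 and GRIK4 had an unadjusted p under 0.05, where 4.12% of all genes did. For GAD1 the difference was 0.19 (95% interval -1.19 to 1.57) and for GABRB2 -0.70 (-1.72 to 0.33), so that differences of more than 1 log2 unit remain possible. At 6 h 0 members passed, where 0.00656% of all genes did, DESeq2 called 0, and 4 had an unadjusted p under 0.05, namely GABRB2, GRIK3, GRIN2A and P2RX4, where 6.53% of all genes did. GAD1 differed by -1.49 (95% interval -3.04 to 0.06) and GABRB2 by -1.15 (-2.23 to -0.08), both lower with CHIR99021. The agents act at different steps and their doses are in different units.

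Of 12 neuron markers 11 were tested, and SYP alone passed at 18 h. The 12 markers summed to 309 and 339 CPM after 18 h of CHIR99021 and 327 and 375 CPM after 18 h of WNT3A, against 398 and 471 CPM in mTeSR1. TUBB3, a neuronal tubulin gene, made up most of this sum, at 219 ± 23.0 CPM after 18 h of CHIR99021 and 232 ± 28.0 CPM after 18 h of WNT3A, against 290 ± 62.6 CPM in mTeSR1. The means of 2 other markers were higher after 18 h of both agents without passing. STMN2 had 0.82 ± 0.395 CPM with CHIR99021 and 1.89 ± 0.704 CPM with WNT3A, against 0.51 ± 0.177 CPM in mTeSR1, and NEFL had 16.9 ± 3.02 and 18.4 ± 2.70 CPM, against 15.1 ± 0.383 CPM. SYP, a synaptic vesicle protein gene, fell to 3.58 ± 1.30 CPM with CHIR99021 (FDR 0.00450) and 3.67 ± 1.16 CPM with WNT3A (FDR 0.0162), against 21.5 ± 6.29 CPM in mTeSR1. None of the 12 markers was at 0 in any group. The part of neuron-like cells and of the higher level of streak markers in these changes was not tested.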

How the data were processed

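Poly-A-selected RNA of 10 libraries was sequenced in read pairs, per the labels' protocols. The authors deposited estimated counts per gene. The submitters' processing notes name Salmon 1.8.0 and GRCh38. The sources used here do not give the transcript set, the gene summary or the strand setting, and antisense and overlapping genes were not separated. Counts were summed per symbol (each member had 1 identifier) and rounded. Levels are CPM by library totals, with the SD of 2 libraries; counting intervals (exact, 95%, scipy 1.17.1) and the floor of 3 counts cover counting error only. Coordinates are from GENCODE 29 and promoter windows from RefSeq.

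Tests used edgeR 4.0.16 in R 4.3.3 (robust quasi-likelihood, TMM, minimum count 10, minimum total 15), with all 10 libraries in 1 fit and Benjamini-Hochberg adjustment over 15251 symbols. An FDR under 0.05 was called. The repeat was a block in comparisons with CHIR99021 18 h only. Each other group holds 1 library of each repeat, and the main comparisons among those groups leave this pairing out. The series' design text says that numbers mark shared repeats, and deviations from group means correlated at 0.261 to 0.595 between same-numbered libraries over 6 pairs of groups.

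Alternatives were DESeq2 1.42.0, its size factors in edgeR, no low-count filter, the other choice of block, identifiers unsummed and each library left out. Leaving out both libraries with a length trend was added after seeing the data. Members named are those called, those with a group mean of 1 CPM or more (3 of these are not reported here by name), and the 5 largest changes in each comparison with mTeSR1. Listed pathway genes are named where called, and neighbours within 250 kb of a called member where given. ABAT, SLC32A1, CHRNA1, TUBB3, STMN2, NEFL, GAD2 and the genes at 0 were named after their values were seen. The members, gene lists and tests were chosen with earlier results of these data known.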

Additional observations from a re-analysis of the deposited data

How the results depend on the processing

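None of the 28 log2 changes of named members changed direction under its alternatives. Of 180 alternative values of the 18 called changes of members, 92 lost the threshold and 0 reversed. DESeq2 size factors in edgeR changed no count by over 1.5 times.

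Members called were 8 at 18 h of WNT3A against mTeSR1 (0 to 1 with 1 library left out, 1 without both libraries with a length trend). They were 10 at 18 h of CHIR99021 (0 to 7 with 1 left out, 0 without both, 5 without the replicate block, 5 per identifier). The 0 members became 1 with DESeq2 and 1 with the replicate block at 6 h of WNT3A, and 1 with DESeq2 at 6 h of CHIR99021. Between 18 h and 6 h of WNT3A the 0 became 9 with DESeq2, 8 with no low-count filter, 5 with the replicate block and 0 to 2 with 1 left out. For CHIR99021 the 0 became 3, 1 with no filter, and 0 to 3 with 1 left out.

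Over all genes, DESeq2, no filter and the replicate block gave 249, 173 and 168 genes in place of 66 at 6 h of WNT3A (10 without both libraries, 13 to 70 with 1 left out). They gave 810, 576 and 751 in place of 320 at 18 h of WNT3A (128, and 53 to 75). At 6 h of CHIR99021 they gave 65, 32 and 21 in place of 3 (1 per identifier, 1 without both, and 1 with any 1 left out). At 18 h of CHIR99021, 424 became 918 with DESeq2, 181 without the block, 254 per identifier, 96 without both, and 10 to 522 with 1 left out. Between 18 h and 6 h of WNT3A, 22 became 415, 275 and 279 (0 without both, 0 to 101). For CHIR99021, 1 became 134 with DESeq2, 21 with no filter, 0 without the block, 0 per identifier, 29 without both, and 0 to 83. Between the agents at 6 h, 1 became 30, 9 and 3 (0 without both, 0 with any 1 left out), and at 18 h 0 became 9 with DESeq2, 1 per identifier, 6 without both, and 0 to 6. The cause of these shifts was not tested.

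With 2 libraries a group, a fit without 1 library rests on the other groups for its spread. The 25 members not tested had group means of at most 0.615 CPM, and a fall or a small rise in them was not detectable at this depth. A rise well past the low-count filter in a group would have brought a member into the test.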
